A study of Rattus norvegicus with 18 samples.

Results

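The genes described here carry the cyclic GMP (cGMP) signal of nitric oxide and of the natriuretic peptides, and were chosen by name, with every array probe set annotated to them. The choice was made with earlier results of these data known. They are Gucy1a1 and Gucy1b1, the subunits of soluble guanylate cyclase; Npr1, Npr2 and Npr3, the natriuretic peptide receptors; Mme, which encodes the peptidase neprilysin; Prkg1 and Prkg2, the cGMP-dependent protein kinases; and Pde5a, a phosphodiesterase that hydrolyses cGMP. Of these 9 genes, 8 were represented, by 10 probe sets of the 31042 on the array that are not controls, and Prkg1 had none in the annotation used here. A filter that left out the dimmest 40% of probe sets by mean over all arrays kept 7 of the 10, from 5 genes, among 18625 tested. The samples were whole kidneys of 18 rats, 9 of the congenic strain S.SHR(2) and 9 of the inbred Dahl salt-sensitive strain (Dahl S, labelled SS/Jr), each measured on 1 Affymetrix Rat Genome 230 2.0 array. Per its label, S.SHR(2) was derived from SS/Jr and SHR/NHsd, a spontaneously hypertensive rat, and its name places the SHR segment on chromosome 2, on a background it shares with Dahl S. The design text gives male rats of 4, 12 and 20 weeks, but the labels give an age, with a diet of 0.3% NaCl, for 2 rats only, both Dahl S, so age entered no comparison. In the order of deposit the arrays form 3 blocks of 6, each with 3 S.SHR(2) and 3 Dahl S rats, and values are also given by block. A block is a run of deposited samples and no age was assigned to it.

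Soluble guanylate cyclase is a heterodimer of an alpha and a beta subunit that makes cGMP when nitric oxide binds the haem of the beta subunit, and both subunits are needed for activity. Npr1 and Npr2 are membrane guanylate cyclases that bind atrial and brain natriuretic peptide and C-type natriuretic peptide, while Npr3 mainly clears these peptides from the circulation. In the kidney, cGMP relaxes vascular smooth muscle and mesangial cells and promotes sodium excretion, and neprilysin, abundant on the proximal tubule brush border, degrades natriuretic and other peptides.

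The promoters of Gucy1b1, Gucy1a1 and Mme are shown because the 5 tested probe sets of these genes were the members with lower means in S.SHR(2) and because Gucy1b1 and Gucy1a1 are neighbours on chromosome 2. Each is the RefSeq sequence of the assembly GRCr8 from 250 bases before to 50 after an annotated gene start, and capitals mark GGGCGG and CCAAT on either strand. The Gucy1b1 window is chr2:169696938-169697237 on the minus strand, that of Gucy1a1 is chr2:169779574-169779873 on the minus strand, and that of Mme is chr2:149872247-149872546 on the plus strand.
Gucy1b1: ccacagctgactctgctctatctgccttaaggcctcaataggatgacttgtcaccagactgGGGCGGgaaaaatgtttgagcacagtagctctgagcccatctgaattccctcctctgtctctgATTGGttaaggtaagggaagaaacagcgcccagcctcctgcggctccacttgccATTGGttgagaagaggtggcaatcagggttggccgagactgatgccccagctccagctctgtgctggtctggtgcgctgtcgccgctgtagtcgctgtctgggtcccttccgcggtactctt
Gucy1a1: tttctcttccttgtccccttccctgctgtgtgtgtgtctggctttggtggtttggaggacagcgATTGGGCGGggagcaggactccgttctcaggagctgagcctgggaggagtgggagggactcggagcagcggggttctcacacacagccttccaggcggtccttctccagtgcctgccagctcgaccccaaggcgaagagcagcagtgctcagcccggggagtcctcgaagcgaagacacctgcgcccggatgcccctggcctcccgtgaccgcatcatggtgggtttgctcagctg
Mme: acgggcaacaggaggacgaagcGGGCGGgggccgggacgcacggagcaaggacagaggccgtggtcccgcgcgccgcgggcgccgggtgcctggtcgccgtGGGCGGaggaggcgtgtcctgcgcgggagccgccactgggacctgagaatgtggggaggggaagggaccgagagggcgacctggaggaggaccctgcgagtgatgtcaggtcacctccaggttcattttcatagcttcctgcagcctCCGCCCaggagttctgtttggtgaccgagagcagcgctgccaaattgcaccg
The Gucy1b1 window holds GGGCGG at 1 place and CCAAT at 2, and the Gucy1a1 window holds each at 1 place, where the motifs overlap. The Mme window holds GGGCGG at 3 places and no CCAAT. Over all 33469 promoters of the table, 33.1% hold GGGCGG and 37.5% hold CCAAT, so these matches are common. None of the 3 windows holds TATAAA, which 14.2% of all promoters hold. The motif CACGTG is in none of them and in 6.42% of all promoters. GC content was 56.3% for Gucy1b1, 63.7% for Gucy1a1 and 68.7% for Mme, against a median of 51.7% over all promoters. The sequences are of the reference strain, not of S.SHR(2) or Dahl S, and the table held a promoter for 7 of the 9 members.

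Gucy1b1, the haem-binding beta subunit, was lower in S.SHR(2) kidneys and was the only member past the threshold in the fit over all 18 rats. On its probe set 1369097_s_at the lowest, median and highest intensities were 50.6, 71.4 and 87.2 in S.SHR(2), against 114.5, 122.1 and 187.4 in Dahl S. Every S.SHR(2) rat lay below every Dahl S rat, a separation seen in 0.102% of all probe sets tested. The mean was 71.8 ± 12.5 in S.SHR(2) and 138 ± 29.9 in Dahl S (SD, n = 9 each). On the log2(intensity + 16) scale, which understates the change of dim probe sets, the level fell by 0.78 ± 0.117 (SE), or 1.72-fold (limma adjusted p = 0.0025). The exact permutation p over all splits of the rats was 4.1e-05, two-sided and the smallest that 48620 splits can give. This p, like every exact permutation p below, is not adjusted over probe sets. The suffix _s_at marks a probe set whose probes can match more than 1 transcript, although the annotation names Gucy1b1 alone.

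The brighter Gucy1b1 probe set, 1374389_at, showed a smaller difference in the same direction that did not pass. Its lowest, median and highest intensities were 80.1, 99.2 and 140.5 in S.SHR(2), against 111.3, 154.6 and 208.2 in Dahl S, so the ranges overlapped. The log2 change was -0.51 ± 0.118 (SE, limma adjusted p = 0.14 over probe sets, exact permutation p = 0.0011). With the deposit block as a covariate it passed (limma adjusted p = 0.033), as did 1369097_s_at (limma adjusted p = 6.6e-06). Over genes, where 1374389_at stood for Gucy1b1 as its brightest probe set, the gene was not called (-0.51, limma adjusted p = 0.16). The mean of both probe sets, an alternative, gave -0.65 (limma adjusted p = 0.0026).

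Gucy1a1, the alpha subunit that pairs with Gucy1b1, had lower means in S.SHR(2) on both of its probe sets, and neither passed. On 1368154_at the lowest, median and highest intensities were 261.4, 347 and 394.4 in S.SHR(2), against 338.9, 382.6 and 413.8 in Dahl S. The log2 change was -0.19 ± 0.0752 (SE, limma adjusted p = 1.0, exact permutation p = 0.0077). On the dimmer 1387079_at the mean was 35.6 ± 8.98 in S.SHR(2) and 56.5 ± 20.8 in Dahl S (SD, n = 9 each), a log2 change of -0.42 ± 0.169 (SE, limma adjusted p = 1.0, exact permutation p = 0.034). The ranges of the strains overlapped on both. With the deposit block as a covariate the adjusted p was 0.33 for 1368154_at and 0.14 for 1387079_at, so the alpha subunit was not called in that fit either.

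**Figure D1:**
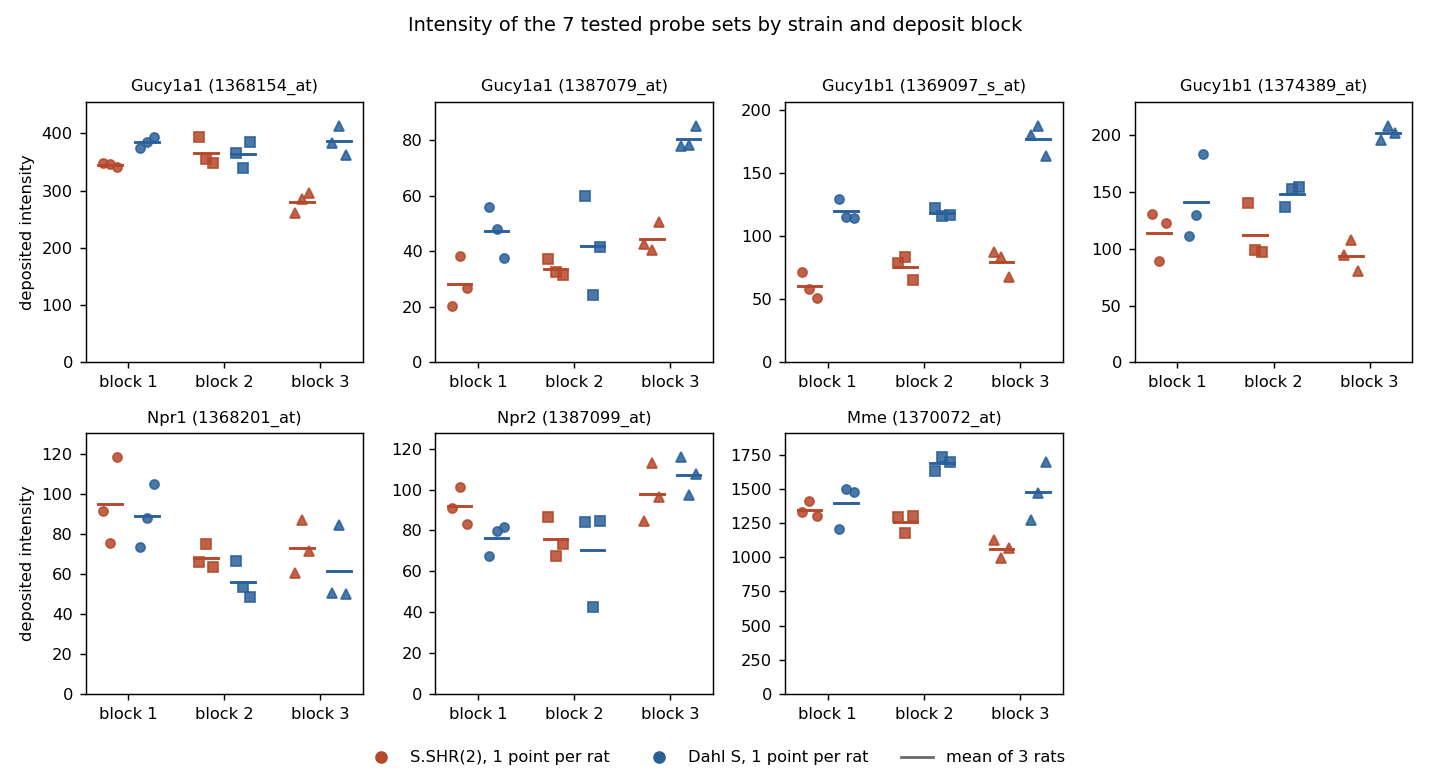
Deposited intensity (linear scale, from 0) of the 7 tested probe sets in each rat, S.SHR(2) left of Dahl S within each deposit block, with bars at the mean of 3 rats. On the Gucy1b1 probe set 1369097_s_at all 9 S.SHR(2) rats lie below all 9 Dahl S rats. On 1374389_at, 1368154_at, 1387079_at and the Mme probe set the strains are also apart in block 3, with S.SHR(2) lower. The strains are apart in block 1 on 1368154_at and in block 2 on the Mme probe set too, again with S.SHR(2) lower. Npr2 is apart in block 1, with S.SHR(2) higher. How many of all probe sets are apart within a single block was not counted.

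By deposit block, Gucy1b1 on 1369097_s_at was lower in S.SHR(2) in all 3 blocks, without overlap. In block 1 the S.SHR(2) rats had 71.4, 58.4 and 50.6, against 129.4, 115.3 and 114.5 in Dahl S. In block 2 the S.SHR(2) rats had 78.8, 83.0 and 65.1, against 122.1, 116 and 116.6 in Dahl S. In block 3 the S.SHR(2) rats had 87.2, 83.7 and 67.7, against 179.6, 187.4 and 163.2 in Dahl S. Separate ranges in every block with S.SHR(2) lower were found in 0.199% of all probe sets tested. For 1369097_s_at this had to hold, because the strains were already apart over all rats, so it is not a separate result. The log2 changes within blocks 1, 2 and 3 were -0.83 ± 0.178, -0.58 ± 0.131 and -0.94 ± 0.131 (SE, n = 3 each), with limma adjusted p values of 0.47, 0.24 and 0.016.

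On the other cyclase probe sets the lowest log2 change was that of block 3, although on 1387079_at block 1 was about as low. For 1374389_at, block 3 gave 94.4, 107.3 and 80.1 in S.SHR(2), against 195.6, 208.2 and 201.4 in Dahl S (log2 change -0.92 ± 0.13 SE, limma adjusted p = 0.016). Its log2 changes in blocks 1 and 2 were -0.25 and -0.37, with overlapping ranges. For Gucy1a1 on 1368154_at, block 3 gave 261.4, 285 and 296.5 in S.SHR(2), against 382.6, 413.8 and 362.2 in Dahl S (log2 change -0.43 ± 0.106 SE, limma adjusted p = 0.15). In block 1 the strains were also apart on this probe set, at 340.5 to 348.5 in S.SHR(2), against 375.3 to 393.2 in Dahl S (log2 change -0.17). In block 2 they overlapped, and the log2 change was 0.02. For 1387079_at, blocks 1, 2 and 3 gave -0.53, -0.19 and -0.54, and the strains were apart in block 3 alone, with means of 44.5 ± 5.32 in S.SHR(2) and 80.5 ± 4.13 in Dahl S (SD, n = 3 each).

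Block 3 also held more strain differences in general, with 13.1% of probe sets at an unadjusted p under 0.05, against 4.86% in block 1 and 4.52% in block 2. The adjusted calls made up 0.247% of probe sets in block 3, 0.0268% in block 1 and 0.14% in block 2. How many of all probe sets had separate ranges within a single block was not counted, so such separation is given as description only. Whether the strain difference changed between blocks was tested with limma's F test of strain by block. The unadjusted p was 0.015 for Gucy1a1 on 1368154_at and 0.025 for Gucy1b1 on 1374389_at, and the adjusted p was 0.73 and 0.74. For 1387079_at and 1369097_s_at the unadjusted p was 0.37 and 0.21. No member passed this test, by which 0.00537% of probe sets were called and 6.56% had an unadjusted p under 0.05.

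**Figure D2:**
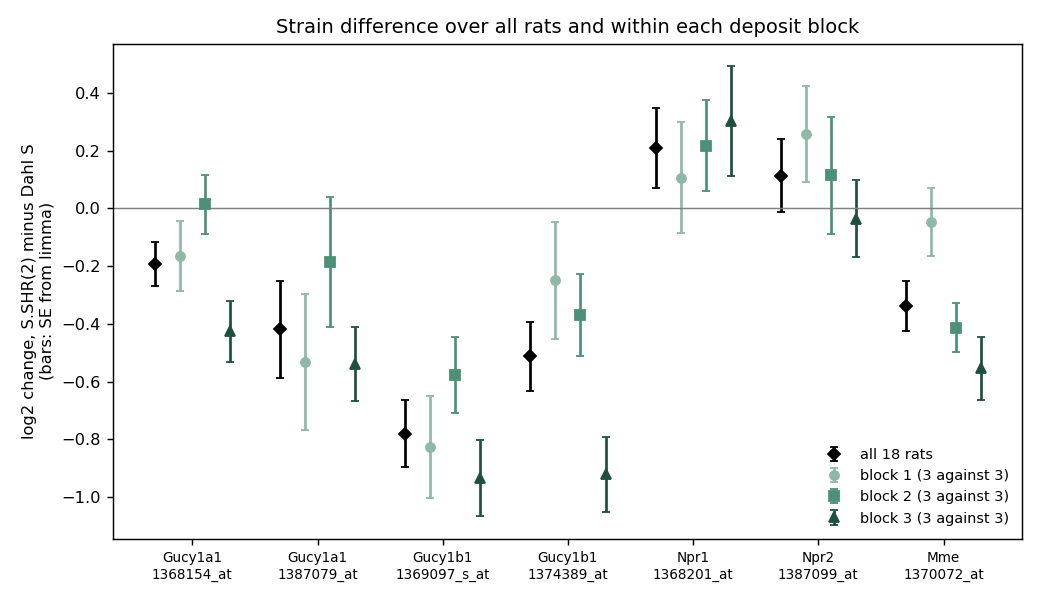
Log2 change of each tested probe set, S.SHR(2) minus Dahl S, over all 18 rats and within each deposit block of 3 against 3, with SE bars from limma. Gucy1b1 on 1369097_s_at lies below 0 in every block (-0.83, -0.58 and -0.94), whereas the other Gucy1b1 probe set and Gucy1a1 on 1368154_at are lowest in block 3 (-0.92 and -0.43).

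Markers of contractile and interstitial cells, in which soluble guanylate cyclase is known to be expressed, had lower sums in S.SHR(2) in block 3, without overlap between strains. Sums of podocyte and blood markers were also apart in that block, with S.SHR(2) higher. They ran from 1234 to 1322 and from 3251 to 3933 in S.SHR(2), against 1192 to 1233 and 2379 to 3136 in Dahl S. The 6 vascular smooth muscle markers, such as Acta2 and Myh11, all had log2 changes below 0, with a median of -0.10 and none called, over all 18 rats. Their summed intensity ran from 1673 to 2189 in S.SHR(2), against 1770 to 2665 in Dahl S. In block 3 it ran from 1673 to 2023 in S.SHR(2), against 2311 to 2665 in Dahl S. Mylk and Cald1, the brightest of the 6, weigh most in this sum. Their means over all rats were 736 and 655 in S.SHR(2), against 767 and 786 in Dahl S. The 6 mesangial, pericyte and interstitial markers were also all below 0, with a median of -0.13 and none called. Their sum in block 3 ran from 946 to 1119 in S.SHR(2), against 1232 to 1269 in Dahl S. Pdgfra, by far the brightest of these 6, weighs most in that sum. Over all rats its mean was 849 in S.SHR(2) and 825 in Dahl S (log2 change -0.008). In blocks 1 and 2 the mean of that sum was higher in S.SHR(2), at 1268 in S.SHR(2) and 1226 in Dahl S in block 1, and 1246 in S.SHR(2) and 1140 in Dahl S in block 2. The mean sum of the smooth muscle markers in block 1 was 2131 in S.SHR(2) and 2200 in Dahl S, and in block 2 it was 1844 in S.SHR(2) and 1864 in Dahl S. Their part in the Gucy1b1 and Gucy1a1 differences was not tested. In whole kidney, fewer cells of a type and less RNA per cell cannot be told apart.

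The 2 natriuretic peptide receptors tested did not pass with or without the deposit block as a covariate, or within any block. Npr1, the receptor of atrial natriuretic peptide, had lowest, median and highest intensities of 60.3, 75 and 118.5 in S.SHR(2), against 48.4, 66.3 and 105 in Dahl S. The ranges overlapped, and the log2 change was 0.21 ± 0.138 (SE, limma adjusted p = 1.0, exact permutation p = 0.16). Its log2 changes were 0.11, 0.22 and 0.30 in blocks 1, 2 and 3, with overlapping ranges in each. Npr2, the receptor of C-type natriuretic peptide, averaged 88.5 ± 14 in S.SHR(2) and 84.5 ± 21.7 in Dahl S (SD, n = 9 each). Its log2 change was 0.11 ± 0.127 (SE, limma adjusted p = 1.0), at 0.26, 0.12 and -0.04 in blocks 1, 2 and 3. In block 1 the strains were apart on Npr2, at 83 to 101.4 in S.SHR(2), against 67.3 to 81.5 in Dahl S. In blocks 2 and 3 they overlapped.

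Mme, which encodes neprilysin, had a lower mean in S.SHR(2) on its 1 probe set, 1370072_at. Over all 18 rats it was called with the deposit block as a covariate and not without it. Its lowest, median and highest intensities were 992.6, 1297.3 and 1412.6 in S.SHR(2), against 1210.7, 1498 and 1734.4 in Dahl S. The log2 change over all rats was -0.34 ± 0.0883 (SE, limma adjusted p = 0.31, exact permutation p = 0.0019) and with the deposit block it was called (-0.34 ± 0.0746, limma adjusted p = 0.034). In block 1 the means were 1350 ± 55.8 in S.SHR(2) and 1395 ± 160 in Dahl S, with overlapping values (log2 change -0.05). In block 2 they were 1260 ± 71.4 in S.SHR(2) and 1688 ± 52.1 in Dahl S, without overlap (log2 change -0.41, limma adjusted p = 0.15). In block 3 they were 1061 ± 66.2 in S.SHR(2) and 1479 ± 215 in Dahl S, again without overlap (SD, n = 3 each, log2 change -0.55, limma adjusted p = 0.071). The F test of strain by block gave Mme an unadjusted p of 0.0093 and an adjusted p of 0.67. The 7 proximal tubule markers had a median log2 change of 0.00, with 5 above 0, and their summed intensity in block 3 ran from 21642 to 23369 in S.SHR(2) and from 19376 to 21735 in Dahl S. The mean of that sum was higher in S.SHR(2) in every block. In blocks 1, 2 and 3 it was 25917, 26600 and 22496 in S.SHR(2), against 25219, 24756 and 20614 in Dahl S. The part of proximal tubule content in the Mme difference was not tested.

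The remaining members were dim, and no strain test was made of them. Npr3, the clearance receptor, had lowest, median and highest intensities of 2.6, 4.5 and 22.8 in S.SHR(2) and 2.2, 5.4 and 15.8 in Dahl S. Pde5a had 1.4, 3.7 and 31.8 in S.SHR(2) and 3.6, 4.9 and 17.5 in Dahl S. Most rats thus lay under the pseudocount of 16 for both genes, and no detection calls were used here to show signal above background. Prkg2, the membrane-bound cGMP kinase known from epithelia, was somewhat brighter, with 10.4, 24.3 and 42 in S.SHR(2) and 14.5, 22.9 and 30.4 in Dahl S. Its block means went both ways, at 33.8 in S.SHR(2) and 24.3 in Dahl S in block 1, 15 in S.SHR(2) and 23.3 in Dahl S in block 2, and 24.7 in S.SHR(2) and 18 in Dahl S in block 3. The strains overlapped in block 1 and were apart in blocks 2 and 3, in opposite directions.

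**Figure D3:**
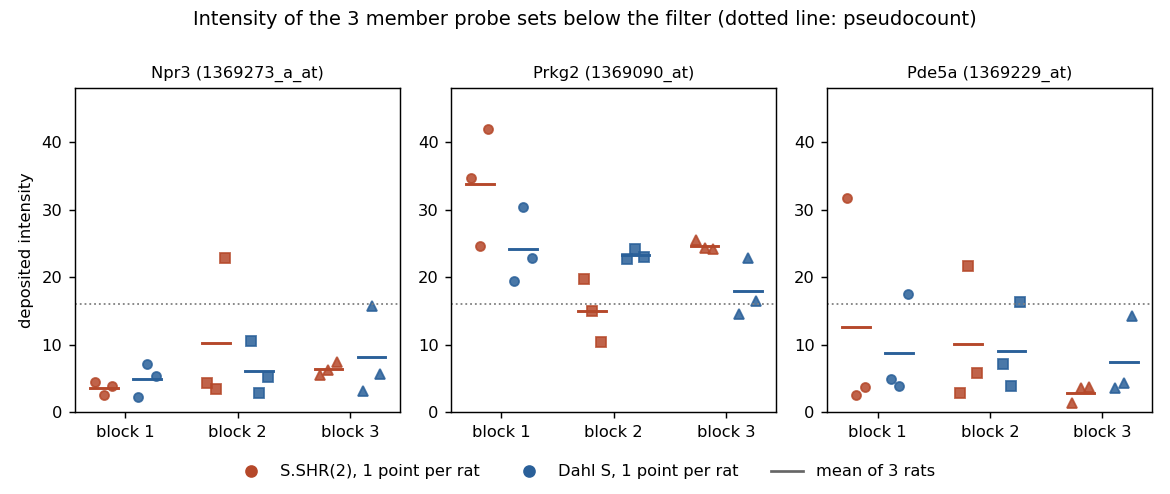
Deposited intensity (linear scale, from 0) of the 3 member probe sets below the filter in each rat, S.SHR(2) left of Dahl S within each deposit block, with bars at the mean of 3 rats and a dotted line at the pseudocount of 16. For Npr3 and Pde5a most rats lie under that line, with single rats up to 22.8 and 31.8.

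Counted together, 1 of the 7 tested member probe sets was called in the fit over all rats, against 0.123% of all 18625 probe sets. With the deposit block as a covariate 3 of 7 were called, both Gucy1b1 probe sets and Mme, against 0.494% of all probe sets. All 3 were lower in S.SHR(2), a call made for 0.317% of all probe sets. At an unadjusted p under 0.05 it was 5 of 7, against 4.02%. The median log2 change was -0.34 over the 7 probe sets and 0.00 over all probe sets tested, with 5 of the 7 below 0, against 48.5% of all. Of the 5, 2 are on Gucy1b1 and 2 on Gucy1a1, so they are not independent. The members were also chosen with earlier results of these data known. These counts therefore describe the members and are not a test of them as a group. All 5 lie on chromosome 2, where shares were higher than over the whole array. Of its tested genes 13.2% had an unadjusted limma p under 0.05, and 5.07% were called with the deposit block as a covariate.

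Position on chromosome 2 was shared by 6 of the 9 members, which were chosen by name with earlier results of these data known. In gene order of GRCr8 they run Npr3, Mme, Gucy1b1, Gucy1a1, Npr1 and Pde5a, with no other protein-coding gene between Gucy1b1 and Gucy1a1. Npr2 lies on chromosome 5, Prkg1 on chromosome 1 and Prkg2 on chromosome 14. Among the 691 tested genes of chromosome 2, Mme was 289th, Gucy1b1 321st, Gucy1a1 322nd and Npr1 410th. Of those 691 genes, 13.2% had an unadjusted p under 0.05, against 4.23% of all genes tested. Over all rats 0.724% were called, and 5.07% were called with the deposit block as a covariate, against 0.467% of all. In that fit the 35 called genes of chromosome 2 lay between the 145th and the 605th, so all 4 tested members of the chromosome fall in that stretch. The borders of the SHR segment were not determined here, and strain variants under the probes were not examined.

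Of the genes next to Gucy1b1 and Mme, most were not called. Ctso, the tested gene before Gucy1b1, was at -0.25 ± 0.189 (SE) on the log2 scale and Pdgfc before it at -0.12 ± 0.277, while Fga, which follows Gucy1a1, was at -0.25 ± 0.249. None of these passed, with unadjusted limma p values of 0.20, 0.68 and 0.33. Next to Mme, Dhx36 was at -0.11 ± 0.202 and Slc33a1 at 0.02 ± 0.0608, and neither passed. Gmps, a GMP synthase that lies 2 tested genes after Mme, was at -0.33 and was called with the deposit block as a covariate (limma adjusted p = 0.014 over genes). Arhgef26, 2 tested genes before Mme, was at 0.36 ± 0.118 (limma adjusted p = 0.89 over genes).

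**Figure D4:**
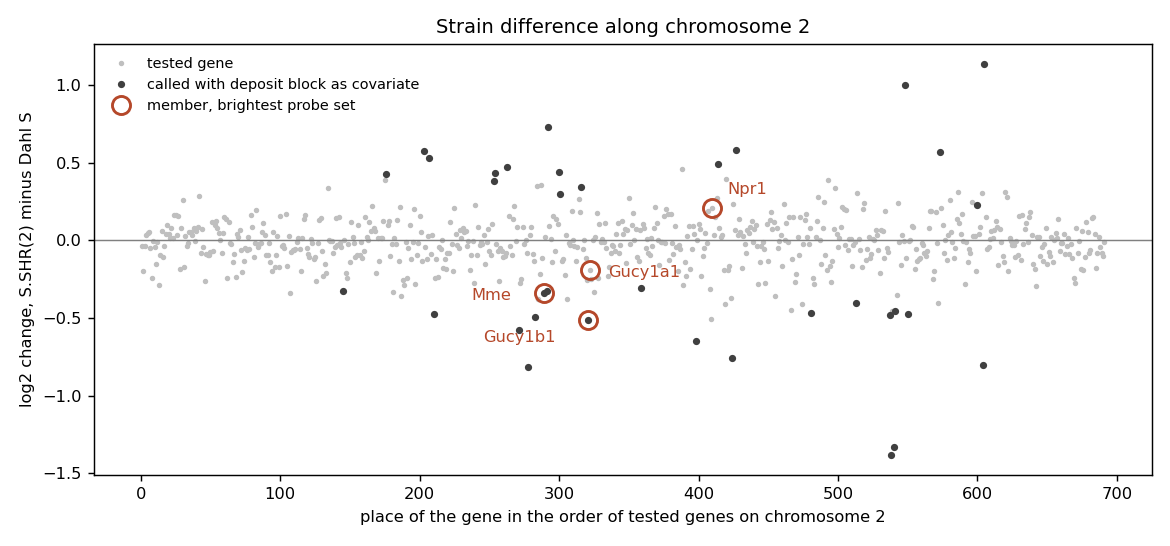
Log2 change, S.SHR(2) minus Dahl S, of the 691 tested genes of chromosome 2 in gene order, 1 probe set per gene, with dark points for genes called with the deposit block as a covariate and circles for the members. Gucy1b1 (-0.51) and Mme (-0.34) are circled dark points, whereas Gucy1a1 (-0.19) and Npr1 (0.21) are circled pale points.

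No other listed gene of the cGMP pathway was called. Of 79 listed, 44 were tested, with 27 below 0, 17 above 0 and a median log2 change of -0.03. By limma 0 were called with or without the deposit block as a covariate, against 0.467% and 0.0572% of all genes tested, and 1 had an unadjusted p under 0.05, against 4.23% of all genes tested. That gene was Gtf2i, a transcription factor that cGMP kinase phosphorylates, with 689 ± 59.9 in S.SHR(2) and 599 ± 36.2 in Dahl S (SD, n = 9 each, log2 change 0.18, limma adjusted p = 1.0). The natriuretic peptide genes Nppa, Nppb and Nppc and all 5 other membrane guanylate cyclases were below the filter, as were the neuronal and endothelial nitric oxide synthases Nos1 and Nos3.

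Among genes of natriuretic and guanylin peptides and their processing, the 6 tested were all below 0. Their median was -0.06, with Furin nearest to 0 at -0.01. They included Ece1, endothelin converting enzyme, at -0.13 ± 0.113 (SE), Guca2b, uroguanylin, at -0.13 ± 0.148 and Ide, the insulin-degrading enzyme, at -0.05 ± 0.0664. In the nitric oxide synthesis list 5 of 10 were below 0, with a median of -0.01, and Slc7a1, an arginine transporter, was at -0.14 ± 0.122, Nos1ap at -0.15 ± 0.131 and Asl, which makes arginine, at 0.07 ± 0.147. Gucy1b2, a further beta subunit gene of soluble guanylate cyclase, was at 0.30 ± 0.208, on the other side of 0 from Gucy1b1. Of 13 tested phosphodiesterases 7 were below 0, with a median of 0.00, among them Pde3b at -0.16 ± 0.148, while Pde4c was at 0.24 ± 0.121 and Pde10a at 0.21 ± 0.151. Among kinase substrates and effectors 7 of 12 were below 0, with a median of -0.05, including Ppp1r12a, the myosin phosphatase targeting subunit, at -0.16 ± 0.103, and Slc12a1, the sodium transporter of the thick ascending limb, at -0.13 ± 0.0921. The cGMP exporters Abcc5 and Abcc4 were at -0.20 ± 0.111 and -0.07 ± 0.148.

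**Figure D5:**
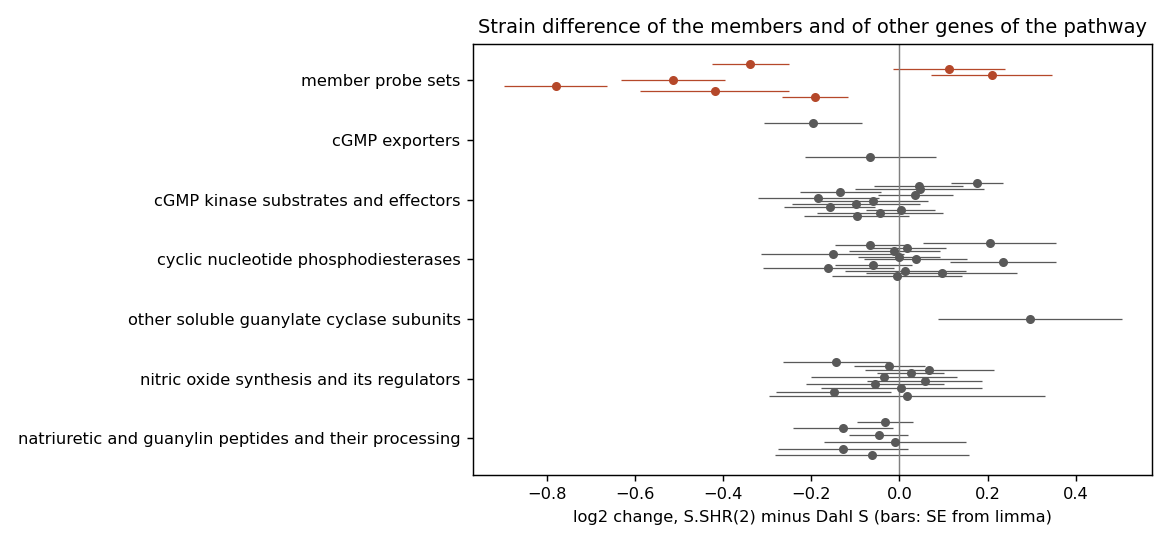
Log2 change, S.SHR(2) minus Dahl S, with SE bars from limma, for the 7 member probe sets in the top row and for the tested genes of each pathway list below it. The members reach -0.78, whereas the 44 pathway genes lie between -0.20 and 0.30.

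Over the 10 pairs of the 5 tested genes, each gene by its brightest probe set and centred on its strain mean over all blocks, no correlation over the 18 rats passed a permutation test. For Gucy1a1 and Gucy1b1, Pearson's r was 0.30 (permutation p = 0.21, adjusted p = 0.56) and Spearman's rho was 0.26 (permutation p = 0.29, adjusted p = 0.58). It was 0.37 without the 2 rats farthest from the median of Gucy1a1, and within blocks 1, 2 and 3, centred on each strain's mean in that block, r was 0.35, 0.63 and -0.14 over 6 rats each, so the pair did not keep 1 direction. The largest r was 0.39, for Gucy1a1 and Mme (rho 0.29, permutation p = 0.13 and 0.25, adjusted p = 0.56 and 0.58), and it was 0.13 without 2 rats. Gucy1b1 and Npr2 had an r of 0.35 (rho 0.31, permutation p = 0.19 and 0.23, adjusted p = 0.56 and 0.58) and 0.33 without 2 rats. Their within-block values were 0.15, 0.17 and 0.40. The smallest r was -0.28, for Npr2 and Mme (rho -0.18, permutation p = 0.28 and 0.49, adjusted p = 0.56 and 0.62), and it was 0.02 without 2 rats. The within-block r was 0.99, -0.01 and -0.36 for Gucy1a1 and Mme, and 0.77, -0.36 and -0.52 for Npr2 and Mme, so neither of these pairs kept 1 direction.

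All arrays had the same trimmed mean intensity, about 150, and no array was identical to another, with correlations across probe sets between 0.909 and 0.988. The 3'/5' ratio of the GAPDH control probe sets, a measure of RNA integrity, ran from 1.19 to 2.51, with the highest values in S.SHR(2) rat 1 of block 1 (2.51) and Dahl S rat 5 of block 2 (2.04). The same ratio for actin was higher and was also highest in these rats (6.83 and 5.88). It ran from 2.22 to 6.83 in block 1, from 3.14 to 5.88 in block 2 and from 2.27 to 3 in block 3. Whether it bears on the strain differences within a block was not tested. Markers of proximal tubule, thick ascending limb, podocytes, endothelium and distal nephron passed the filter wherever they had a probe set. The adrenal markers Cyp11b1, Star, Cyp17a1 and Hsd3b1 were all below it. Each rat was counted as 1 replicate, and precision is limited by how many arrays there are.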

How the data were processed

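Whole-kidney RNA of 18 rats was measured on Affymetrix arrays, as biotinylated cRNA per the labels' protocols. The authors deposited linear intensities, 1 value for each probe set on each array, and their equal trimmed means show that arrays had been scaled. Software: not given in the sources used here. Values were transformed as log2(intensity + 16), and quantile normalization was applied because array medians spanned 0.235, over a limit of 0.2. The 57 control probe sets and the dimmest 40% (mean log2 under 5.48) were left out.

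Strains were compared with limma 3.58.1 in R 4.3.3 (lmFit, eBayes with an intensity trend, two-sided, S.SHR(2) minus Dahl S, no covariate), and adjusted p values are Benjamini-Hochberg over all 18625 probe sets or 10483 genes, with calls under 0.05. Each gene took the values of the brightest probe set annotated to it alone, and pathway and marker genes were tested at gene level. The strain by deposit block F test has 2 degrees of freedom. Exact permutation tests are two-sided over 48620 splits, with unadjusted p values, and correlations used 100000 permutations within strains. Each fit was tested on simulated data. Symbols and gene order come from the platform annotation and the RefSeq table of GRCr8. Named are all member probe sets, up to 3 genes of each pathway list by smallest p, any called one, and the 2 tested neighbours on each side of called members. The members, lists and tests were chosen with earlier results of these data known. Alternatives are given in the closing section. Figures were drawn with matplotlib 3.10.9.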

Additional observations from a re-analysis of the deposited data

Results flagged for a closer look

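For 3 member probe sets the strain difference varied between deposit blocks at an unadjusted p under 0.05 in limma's F test of strain by block, and none passed after adjustment over all probe sets. Mme had an unadjusted p of 0.0093 (adjusted p = 0.67), with log2 changes, S.SHR(2) minus Dahl S, of -0.05, -0.41 and -0.55 in blocks 1, 2 and 3. Gucy1a1 on 1368154_at had an unadjusted p of 0.015 (adjusted p = 0.73), with log2 changes of -0.17, 0.02 and -0.43. Gucy1b1 on 1374389_at had an unadjusted p of 0.025 (adjusted p = 0.74), with log2 changes of -0.25, -0.37 and -0.92. Over all probe sets 6.56% had an unadjusted p under 0.05 in this test. In 14 sets of 9 values, 7 probe sets in each strain, no single rat stood apart from the others by Dixon's criterion, which chance meets in about 1 of 20 such sets.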

How the results depend on the processing

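The call of Gucy1b1 on 1369097_s_at was kept in all fits with another pseudocount, filter, normalization, eBayes setting or array weights, without the 2 arrays of highest GAPDH ratio, and without any 1 rat (log2 change -0.82 to -0.73, adjusted p 0.0021 to 0.0073). It was also kept without deposit block 3, a fit added after the data were seen (-0.70, adjusted p = 0.013), and was lost within blocks 1 and 2. On 1374389_at Gucy1b1 was called with array weights (adjusted p = 0.044) and without Dahl S replicate 1 (adjusted p = 0.043). Without block 3 its log2 change was -0.31, that of Mme -0.23 and that of Gucy1a1 on 1368154_at -0.08, none called. Gucy1a1 turned to 0.015 within block 2 and Npr2 to -0.036 within block 3. With 60% of dim probe sets left out, Npr1 and 1387079_at were not tested. The number of member probe sets called, 1 of 7, was 2 with array weights, 3 with deposit block as a covariate, 0 within block 1, 0 within block 2 and 2 within block 3, and 1 to 2 without 1 rat, with 2 without Dahl S replicate 1. Over all 18625 probe sets 23 were called, 41 with array weights, 92 with the block covariate and 16 to 28 without 1 rat. Over genes 6 were called, 11 with values as deposited, 19 with array weights, 49 with the block covariate, 10 when probe sets were averaged per gene and 6 to 13 without 1 rat, the highest without Dahl S replicate 1. By the strain by block test 1 probe set was called, 43 with array weights, 5 without the 2 arrays of highest GAPDH ratio and 1 to 3 without 1 rat, with 3 when S.SHR(2) replicate 1 was left out and 2 when Dahl S replicate 2, 5 or 6 was. The cause of these changes was not tested. No paired analysis was possible because the labels give no shared replicate numbers.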
